A study of Mus musculus with 24 samples.

Results

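Molecular chaperones bind unfolded proteins and help them reach or keep their folded state, and cells make more of them when unfolded protein builds up. In the cytosol the transcription factor HSF1 drives the HSP70, HSP40, HSP90 and small heat shock protein genes through heat shock elements, while the chaperonin ring complex (CCT) folds newly made actin and tubulin. In the endoplasmic reticulum (ER), where secreted and membrane proteins fold, the unfolded protein response raises BiP (*Hspa5*), lectin chaperones and disulphide isomerases through the factors ATF6, XBP1 and ATF4. Cerebellar Purkinje neurons and hippocampal granule neurons make large amounts of membrane protein, and both sets of genes are expressed there under normal conditions.

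The genes described are 50 chaperone and stress genes chosen by name, of 25793 gene symbols in the count tables. They were sorted by compartment and role into 15 HSF1-type cytosolic genes, 5 other cytosolic chaperones, 2 heat shock factors, 7 chaperonin subunits, 3 mitochondrial chaperones, 15 ER chaperones and 3 unfolded protein response (UPR) factors. All 50 had counts and passed the filter on low counts in every comparison. RNA was sequenced from the cerebellum (CB) and hippocampus (HC) of male mice at postnatal day 14 (P14) and 35 (P35), with 3 mice in each of 8 groups and 24 libraries in all. The mutants, 16GsoT/T, are homozygous for a reciprocal translocation whose chromosome 5 breakpoint lies between *Auts2* and *Galnt17*, and the controls were wild type (WT) at the same age. The labels give C57BL/6 as the strain background of every group, while the study's methods and most WT sample titles name B6C3, a C57BL/6 and C3H/He cross. By those methods homozygotes were bred from homozygous parents. Whether the sequenced WT mice were littermates is not given for these libraries.

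Reads assigned to genes numbered 22893603 to 40564789 per library in P14 CB, 10572358 to 13245150 in P14 HC, 5140843 to 7974640 in P35 CB and 2563968 to 4127478 in P35 HC. *Galnt17*, listed under its older symbol *Wbscr17*, was lower in all 3 mutants than in any WT of the same region and age, for example 18.5 to 22.4 CPM (counts scaled to the size of the library) against 40.0 to 43.4 CPM in P14 CB and 45.4 to 52.1 CPM against 58.6 to 60.5 CPM in P35 CB. The tissue labels held, with 6 Purkinje and granule cell markers summing to 4367 to 5426 CPM in CB libraries and 34.1 to 168 CPM in HC libraries. In P35 CB the libraries differed by genotype in more than the genes of interest. The share of reads on genes was 37.6 to 37.7% in WT and 42.3 to 42.4% in 16GsoT/T, and the share not mapped uniquely was 10.6 to 11.2% and 7.90 to 8.64%. In P14 HC the mutants ran on lane 2 and the WT on lane 1, so genotype cannot be told apart from the lane. Among the P35 HC libraries, the number of the WT library N10 is in one series with those of the mutants (B10, B11 and B12), and W481 and W483, the other WT libraries, carry later numbers. Levels are CPM on a scale common to all 24 libraries, RPKM are the same divided by exon length, and a gene is called higher or lower where the edgeR quasi-likelihood test of 3 mutants against 3 WT gives a p of at most 0.05 after Benjamini-Hochberg adjustment over all genes tested.

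The promoter windows of these genes differ by compartment. The sequences below were chosen because they carry the heat shock or ER stress element, or lie beside the gene that changed most; they run from 250 bases before to 50 after the annotated start, are from RefSeq (GRCm38.p6) and read 5′ to 3′ on the strand of the gene, with matched elements in capitals. A heat shock element was searched as GAANNTTC or TTCNNGAA, that is 2 inverted units, or as 3 such alternating units in a row, and an ER stress response element (ERSE) as CCAAT, any 9 bases and CCACG, each on both strands. Of the 50 genes, 41 matched an entry, some with more than 1 start. *Hspa8*, *Hsp90aa1*, *Hsp90ab1*, *Hsf1*, *Cct4*, *Hspa9*, *Hspa13*, *Manf* and *Hyou1* had no entry and were not searched.
Hspa1a promoter (chr17:34972107-34972406, minus strand): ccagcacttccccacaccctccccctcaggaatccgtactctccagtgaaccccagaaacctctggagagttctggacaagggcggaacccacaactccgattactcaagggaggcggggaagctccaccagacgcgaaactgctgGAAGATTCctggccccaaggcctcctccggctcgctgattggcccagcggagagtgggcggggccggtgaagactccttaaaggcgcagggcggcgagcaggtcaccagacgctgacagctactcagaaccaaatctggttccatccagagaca
Hsph1 promoter (chr5:149636266-149636565, minus strand): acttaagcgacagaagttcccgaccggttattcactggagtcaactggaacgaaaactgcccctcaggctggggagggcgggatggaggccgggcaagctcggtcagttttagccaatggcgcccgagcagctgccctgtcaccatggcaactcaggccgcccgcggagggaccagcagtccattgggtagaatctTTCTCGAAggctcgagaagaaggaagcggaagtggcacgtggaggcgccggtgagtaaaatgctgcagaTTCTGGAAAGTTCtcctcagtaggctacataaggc
Chordc1 promoter (chr9:18292017-18292316, plus strand): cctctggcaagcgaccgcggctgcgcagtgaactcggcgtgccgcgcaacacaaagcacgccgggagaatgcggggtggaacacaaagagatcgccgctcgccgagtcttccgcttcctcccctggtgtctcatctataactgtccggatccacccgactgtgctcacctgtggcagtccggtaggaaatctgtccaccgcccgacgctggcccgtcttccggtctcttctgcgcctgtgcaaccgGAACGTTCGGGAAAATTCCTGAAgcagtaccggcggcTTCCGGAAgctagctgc
Hspd1 promoter (chr1:55087883-55088182, minus strand): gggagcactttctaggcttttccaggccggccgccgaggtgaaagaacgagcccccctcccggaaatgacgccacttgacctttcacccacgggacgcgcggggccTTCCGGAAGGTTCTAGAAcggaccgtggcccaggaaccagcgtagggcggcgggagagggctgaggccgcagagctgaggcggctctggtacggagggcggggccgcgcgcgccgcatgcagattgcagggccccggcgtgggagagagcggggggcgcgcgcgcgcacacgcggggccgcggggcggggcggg
Hspa5 promoter (chr2:34771840-34772139, plus strand): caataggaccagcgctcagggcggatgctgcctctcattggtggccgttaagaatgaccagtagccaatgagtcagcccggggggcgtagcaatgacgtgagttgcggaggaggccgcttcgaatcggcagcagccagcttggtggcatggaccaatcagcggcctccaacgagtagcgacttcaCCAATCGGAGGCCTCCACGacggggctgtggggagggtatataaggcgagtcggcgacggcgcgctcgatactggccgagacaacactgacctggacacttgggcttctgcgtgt
Calr promoter (chr8:84846882-84847181, minus strand): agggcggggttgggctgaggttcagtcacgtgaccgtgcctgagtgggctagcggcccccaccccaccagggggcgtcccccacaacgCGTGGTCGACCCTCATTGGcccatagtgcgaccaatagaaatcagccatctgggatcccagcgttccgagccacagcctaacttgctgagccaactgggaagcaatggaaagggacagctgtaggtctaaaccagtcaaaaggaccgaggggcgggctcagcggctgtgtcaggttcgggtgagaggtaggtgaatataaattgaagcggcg

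*Hspa1a* and its neighbour *Hspa1b*, the classical inducible HSP70 genes, hold a 2-unit element 104 bases before the start. *Hsph1*, an HSP110 exchange factor for HSP70, holds a 3-unit run just after the start. *Chordc1*, an HSP90 co-chaperone, holds overlapping 3-unit runs at the start. It has the most matches of the 41 genes, with 5 matches to the 2-unit element, the last of them apart from the others. The head-to-head pair *Hspd1* and *Hspe1*, mitochondrial HSP60 and its lid HSP10, share a single run of alternating units between their starts. *Hspa5* and *Calr*, the lectin chaperone calreticulin, each hold an ERSE, on opposite strands, 65 and 162 bases before the start.

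**Figure D1:**
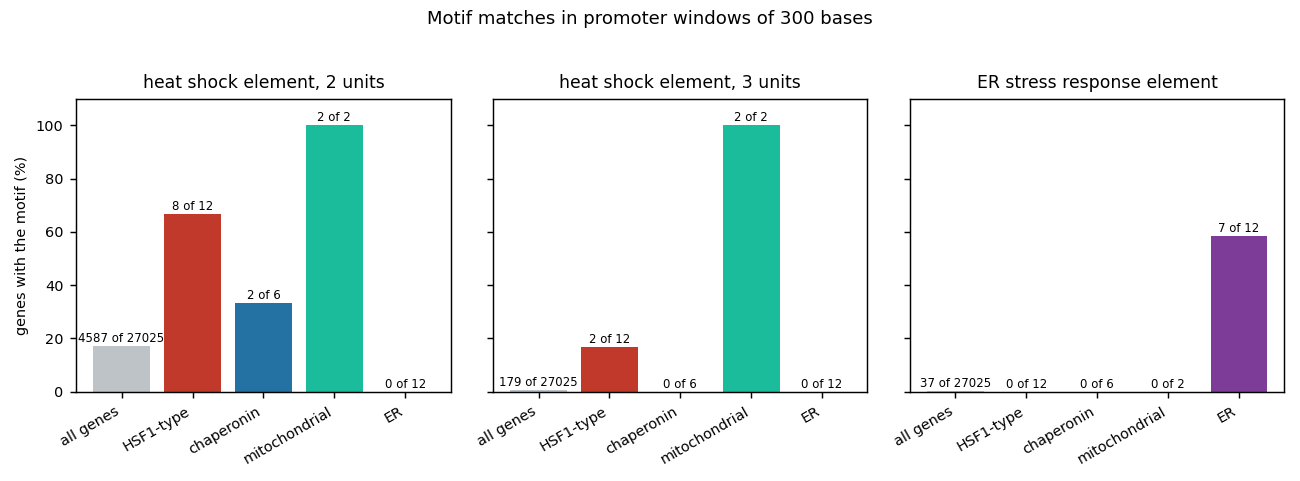
Share of genes (y axis, percent) whose promoter window of 300 bases holds each motif, for all genes and for 4 classes, with counts above the bars. The ER stress response element is found in 7 of 12 ER genes and in 0 genes of the other classes shown, and the 2-unit heat shock element in 8 of 12 HSF1-type genes and 0 of 12 ER genes.

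The 2-unit heat shock element stood in 8 of 12 HSF1-type genes with a window, 2 of 6 chaperonin genes (*Cct2* and *Cct5*), both mitochondrial genes and 0 of 12 ER genes, against 17% of 27025 genes. The 3-unit run stood in 4 of the 41 genes, against 0.662% of all genes. The ERSE stood in 7 ER genes (*Hspa5*, *Hsp90b1*, *Dnajc3*, *Calr*, *Canx*, *Pdia6* and *Creld2*) and in no gene of another class, against 37 genes or 0.137% of all genes. TGATGNAA, an amino acid response element bound by ATF4, was in 0 of the 41 windows and in 4.51% of all genes. Such a match is a description of letters in a window and was not tested as a binding site.

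Per exon length, the cytosolic chaperones *Hsp90ab1*, *Hsp90aa1* and *Hspa8* were the most abundant members, while other cytosolic members were low. In WT, *Hsp90ab1*, the constitutive HSP90, had 324 to 589.4 RPKM over the 4 region and age groups, *Hsp90aa1*, the inducible HSP90, 232 to 393 RPKM, and *Hspa8*, the constitutive HSP70, 278 to 391 RPKM. The ER genes *Calr* (76.1 to 159 RPKM), *Hsp90b1* (77.8 to 154 RPKM), *Hspa5* (60.4 to 114 RPKM) and *Canx* (75.3 to 126 RPKM) each had their lowest mean WT level in P35 CB. In P35 HC the WT library N10 was the highest for each of these genes. W481 and W483 overlapped the P35 CB WT for *Hspa5* (63.0 and 59.8 against 52.0 to 67.1 RPKM), *Hsp90b1* and *Canx*, and stood above them for *Calr*. The inducible HSP70 genes were low: *Hspa1a* had 0.623 to 2.68 RPKM and *Hspa1b* 0.705 to 2.41 RPKM in WT. Some members marked the region: *Hspa2*, an HSP70 of neurons and testis, had 4.70 and 11.2 RPKM in WT CB against 23.9 and 28.7 RPKM in WT HC, and *Hsph1* 14.0 and 19.98 RPKM against 37.4 and 48.4 RPKM. Differences in level between regions or ages were not tested.

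In P35 CB, 28 of the 50 genes changed in 16GsoT/T, 25 of them upward. Those that rose were 10 of 15 HSF1-type genes, 3 of 5 other cytosolic chaperones, 6 of 7 chaperonin subunits, 2 of 3 mitochondrial chaperones, 3 of 15 ER genes and 1 of 3 UPR factors. Those that fell were *Hsf2* and 2 ER genes. The classes were not tested against each other. The size ran from 0.21 on the log2 scale (*Dnaja1* and *Cct8*) to 1.43 (*Hspa1b*). Of all 14004 genes tested in P35 CB, 35.3% were called, 17.4% higher and 18% lower, beside 50% higher and 6% lower among the members. The median log2 fold change was 0.28 over the members and -0.004 over all genes. Abundant genes leaned upward as a whole: of the 2155 genes at or above the members' median level, 44.0% were called higher and 13.3% lower, with a median of 0.15, beside 18 and 0 of the 25 members in that range. Groups did not overlap for 33 of the 50 members, against 47.7% of all genes.

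**Figure D2:**
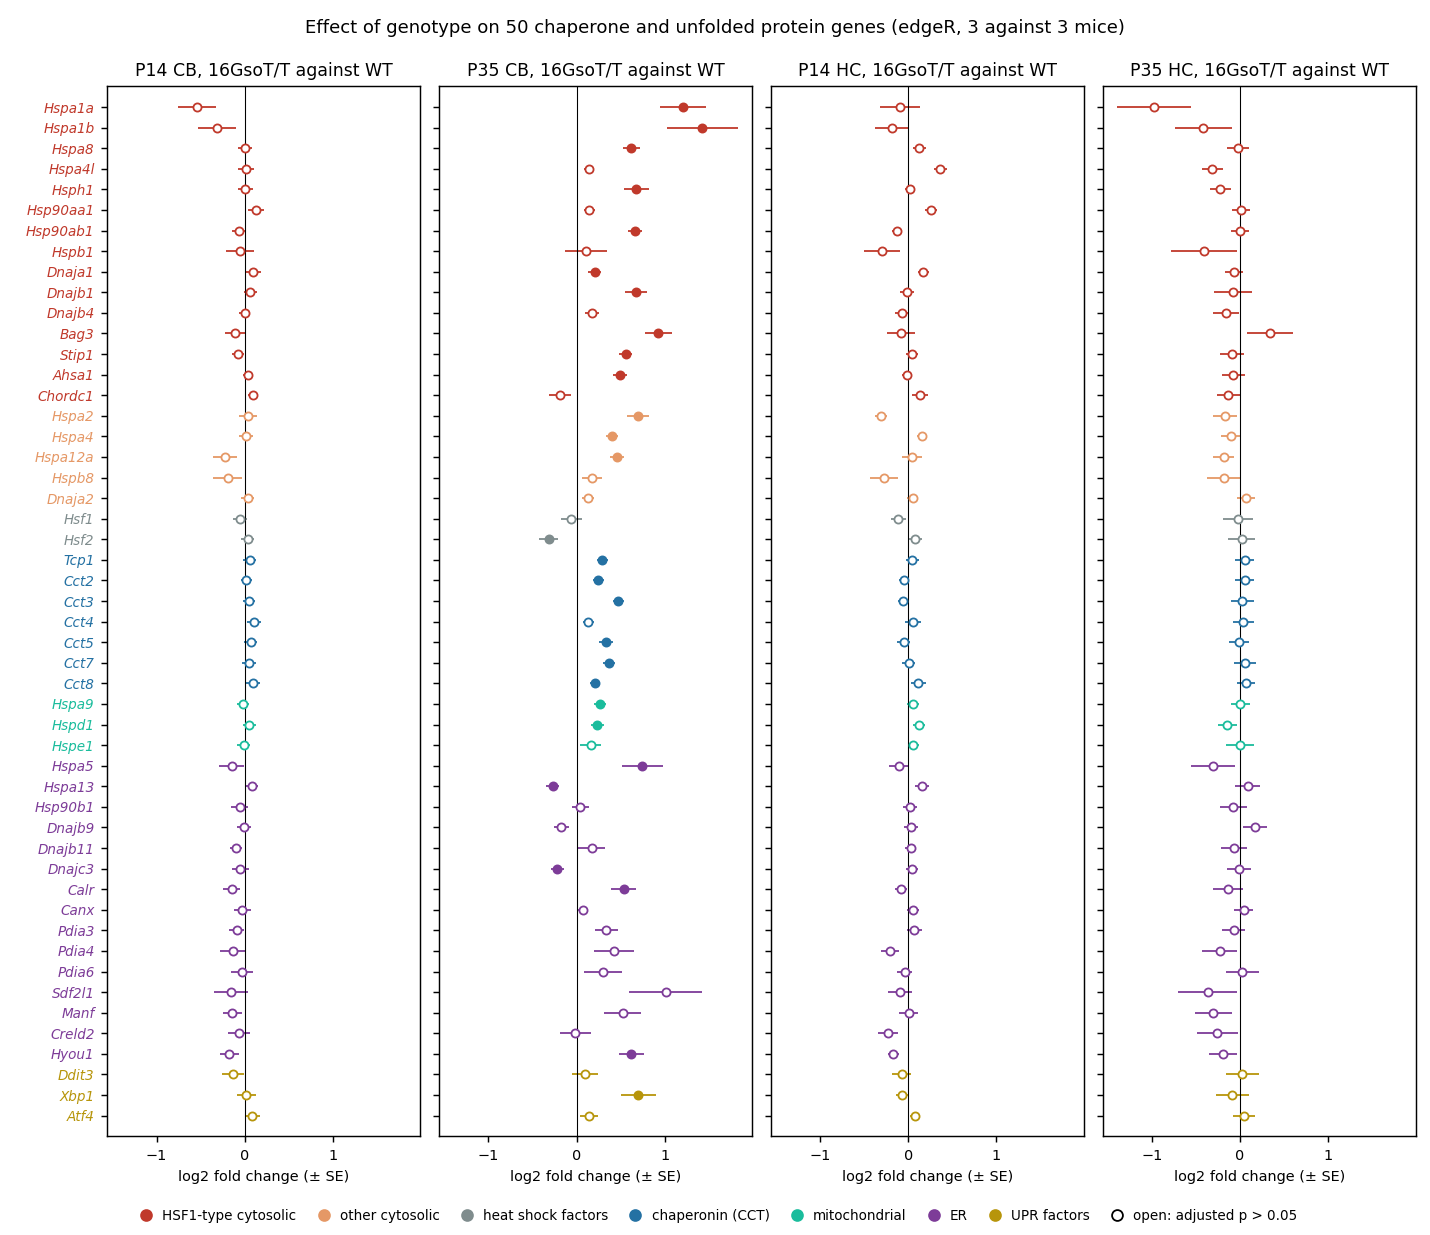
Log2 fold change of 16GsoT/T against WT with its standard error for the 50 genes, coloured by class, in 4 panels (P14 CB, P35 CB, P14 HC, P35 HC). Filled points are called at an adjusted p of at most 0.05, which occurs for 28 genes in P35 CB and for 0 in each of the other 3 panels.

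Among the 15 HSF1-type genes 14 were higher and 10 were called, with a median log2 fold change of 0.56. *Hspa8* (chr9:40609067-40613283, NCBIM37, plus strand) was at 1094, 1165 and 1206 CPM in the WT libraries M27, M28 and M29 and at 1557, 1702 and 2148 CPM in the mutants C19, C20 and C21. All 3 mutants stood above all 3 WT, with C21 the highest, and the fitted log2 fold change was 0.62 (edgeR adjusted p = 0.00042, standard error 0.0970). *Hsp90ab1* stayed within 958 to 980 CPM in WT and reached 1458, 1418 and 1795 CPM in the mutants, a difference of 0.66 on the log2 scale (edgeR adjusted p = 6.6e-05, standard error 0.0800). Its inducible partner *Hsp90aa1* moved far less, from 1055, 1070 and 1085 CPM to 1215, 1108 and 1277 CPM, and its log2 fold change of 0.15 missed the threshold (edgeR adjusted p = 0.0827). The groups of both HSP90 genes were apart, but the rise of the constitutive gene was 1.58-fold and the difference of the inducible gene 1.11-fold. *Hsph1* had 94.6, 93.3 and 107 CPM in WT and 124, 148 and 205 CPM in the mutants (log2 fold change 0.68, standard error 0.143).

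The inducible HSP70 pair had few reads. *Hspa1a* was counted 22, 24 and 17 times in WT and 41, 39 and 66 times in the mutants, which is 3.45, 2.94 and 3.14 CPM against 6.99, 5.51 and 9.82 CPM. *Hspa1b* was counted 18, 18 and 5 times in WT and 24, 27 and 59 times in the mutants. Both were higher in every mutant, at log2 fold changes of 1.21 (standard error 0.260, edgeR adjusted p = 0.00349) and 1.43 (standard error 0.404, edgeR adjusted p = 0.016), and *Hspa1b* was not called without C21 (log2 fold change 0.94) or without M29. Both genes lie on the minus strand (NCBIM37), *Hspa1a* at chr17:35106144-35109069 and *Hspa1b* at chr17:35093381-35096183, and share 61% of their 50-base stretches with each other or *Hspa1l*, so how the counting split or dropped their common reads sets these values. *Hspa1a* also overlaps the antisense gene *Gm20481* over 18.9% of its exons, and the strand option of the counting is not given in the sources used here.

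Several co-chaperones of the class rose as well. *Bag3*, which links HSP70 to autophagy, had 11.9, 14.1 and 13.1 CPM in WT and 21.8, 22.7 and 30.9 CPM in the mutants, a 1.90-fold rise (edgeR adjusted p = 0.000639). *Dnajb1*, an HSP40, went from 31.8, 34.7 and 35.1 CPM to 52.9, 45.4 and 65.9 CPM. *Stip1*, the adaptor between HSP70 and HSP90, rose by 0.56 and *Ahsa1*, the activator of the HSP90 ATPase, by 0.49 on the log2 scale, the latter from 97.2 ± 0.149 CPM in WT (SD, n = 3) to 129, 129 and 158 CPM in the mutants. None of these 4 groups overlapped. *Dnaja1* was called higher as well. That call was lost in a fit of all 12 libraries of the age and without C20, C21, M28 or M29. *Chordc1*, with the most heat shock element matches of the 41 genes with a window, had a lower mean in the mutants. It was at 55.6 ± 4.01 CPM in WT and 49.3 ± 10.1 CPM in the mutants (SD, n = 3 each), and the groups overlapped. It was not called with all libraries, though it was called lower without C21. *Hspb1*, a small heat shock protein, had 6.60 ± 0.554 and 7.17 ± 2.37 CPM and was not called either. The factors themselves did not rise: *Hsf1* was at 35.4 ± 4.03 and 34.1 ± 4.21 CPM, and *Hsf2* was lower, at 33.3 ± 3.24 and 27.2 ± 2.56 CPM (log2 fold change -0.32, edgeR adjusted p = 0.0393). The *Hsf2* call was lost under DESeq2, in the fit of 12 libraries, and without C20, C21, M27 or M28.

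Of the 5 other cytosolic chaperones 3 rose, namely *Hspa2*, *Hspa4* and *Hspa12a*, with a class median of 0.40. *Hspa2* was at 12.7, 11.04 and 12.01 CPM in WT and 19.96, 19.4 and 19.04 CPM in the mutants, so that the 3 mutants lay close together (log2 fold change 0.69, edgeR adjusted p = 0.00111, standard error 0.125). *Hspa4*, an HSP110 family member, rose by 0.40 on the log2 scale, from 215, 224 and 243 CPM to 289, 306 and 318 CPM. *Hspa12a* rose by 0.46, from 123, 136 and 106 CPM to 166, 177 and 165 CPM. The mutants stood above the WT for all 3 genes.

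The 7 chaperonin subunits were all higher, by 0.14 to 0.47 on the log2 scale, with a median of 0.29. *Cct3* (chr3:88101038-88125689, NCBIM37, plus strand) was at 115, 106 and 111 CPM in WT and at 153, 153 and 161 CPM in the mutants, and *Tcp1*, the first subunit of the ring, at 151, 141 and 147 against 184, 178 and 183 CPM. The spread within a group was small for both and the groups were well apart (log2 fold change 0.47 with edgeR adjusted p = 0.000118 for *Cct3*, and 0.29 with edgeR adjusted p = 0.00194 for *Tcp1*). *Cct2*, *Cct5*, *Cct7* and *Cct8* were called as well, at 0.24, 0.33, 0.37 and 0.21, and *Cct4* was not, at 0.14 (edgeR adjusted p = 0.116). The 6 calls held whichever of the 6 libraries was left out. In the mitochondrion, *Hspa9* (mortalin) rose by 0.26 and *Hspd1* by 0.24, and *Hspe1*, which shares the promoter of *Hspd1*, had a log2 fold change of 0.16 and was not called. The call of *Hspd1* was lost in a fit of all 12 libraries of the age and without C21, M27 or M28. That of *Hspa9* was lost without M28.

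**Figure D3:**
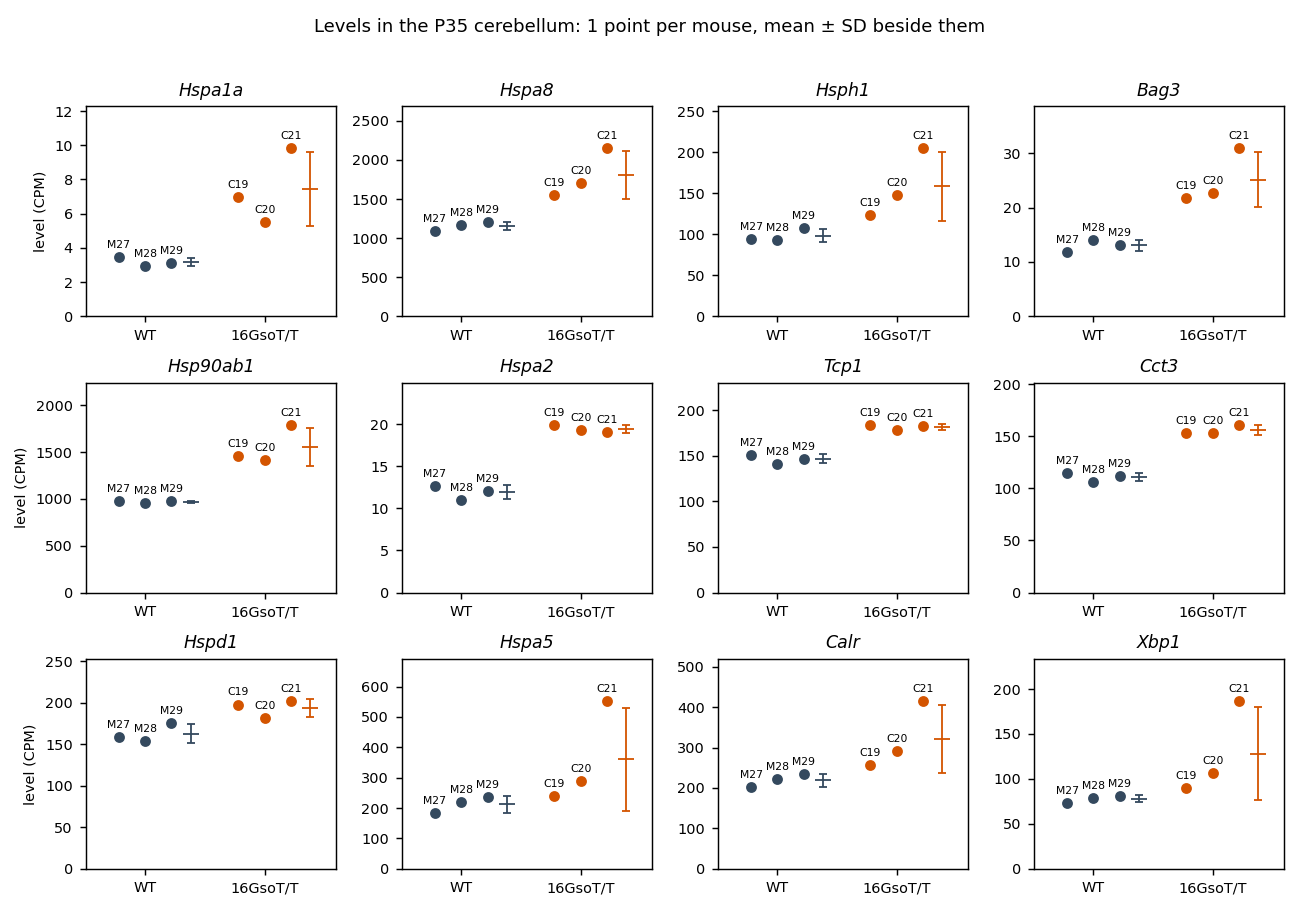
Levels (CPM, y axis from 0) of 12 members in the 6 P35 CB libraries, with WT in blue-grey and 16GsoT/T in orange, 1 point per mouse, and the mean ± SD beside each group. For Tcp1, Cct3 and Hspa2 the 3 mutants lie close together above the WT, whereas for Hspa5, Calr and Xbp1 the library C21 stands far above C19 and C20.

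The ER genes behaved differently from mouse to mouse. Of 15 members 11 were higher and 4 lower, with a median of 0.30, and 5 were called: *Hspa5*, *Calr* and *Hyou1* higher, *Hspa13* and *Dnajc3* lower. *Hspa5* (chr2:34627490-34632051, NCBIM37, plus strand) was at 183, 218 and 236 CPM in WT and at 240, 287 and 553 CPM in the mutants. C19 lay just above the highest WT library and C21 at more than any other P35 CB library, and the log2 fold change of 0.75 had a standard error of 0.231 (edgeR adjusted p = 0.0244). *Calr* had 202, 222 and 234 CPM against 257, 291 and 415 CPM, and *Hyou1*, an ER relative of HSP110, 63.4, 71.9 and 70.6 against 82.2, 100.02 and 138 CPM. Both were higher in all 3 mutants (log2 fold changes 0.53 and 0.62, edgeR adjusted p = 0.00963 and 0.00575). *Hspa13*, an ER-associated HSP70, was lower and tight, at 46.7 to 50.2 CPM in WT and 40.6 to 41.1 CPM in the mutants (log2 fold change -0.27), and *Dnajc3*, an inhibitor of the kinase PERK, fell by 0.22 on the log2 scale. The *Hspa13* call was lost under DESeq2, in a fit of all 12 libraries of the age, and without M27 or M28. The *Dnajc3* call was lost under DESeq2, with no filter on low counts, in the fit of 12 libraries, and when C19, C20, M27, M28 or M29 was left out.

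The other 10 ER genes were not called, among them several that carry the ERSE. *Hsp90b1* (GRP94) had 314 ± 19.4 and 327 ± 48.1 CPM, *Canx* (calnexin) 315 ± 3.37 and 336 ± 19.6 CPM, and *Creld2* 15.5 ± 1.204 and 15.6 ± 4.34 CPM (SD, n = 3 each). *Sdf2l1* was at 6.74, 4.91 and 6.10 CPM in WT and 4.78, 9.18 and 21.6 CPM in the mutants, so that C19 was the lowest and C21 the highest of the 6 libraries (log2 fold change 1.01, edgeR adjusted p = 0.0736, standard error 0.412). *Manf*, a secreted protein of the ER stress response, and the disulphide isomerase *Pdia6* had the same order of mutants, with 37.5, 46.9 and 79.0 CPM and 47.8, 63.0 and 107 CPM. Among the UPR factors *Xbp1*, a transcription factor spliced and induced in ER stress, was called at 0.70, with 73.6, 79.0 and 81.3 CPM in WT and 90.2, 107 and 187 CPM in the mutants. *Ddit3* (CHOP), the factor tied to cell death in prolonged ER stress, had 21.4 ± 3.46 and 23.3 ± 3.75 CPM, and *Atf4* 136 ± 9.37 and 151 ± 25.6 CPM, and neither was called. The counts do not separate the spliced and unspliced forms of *Xbp1*.

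The library C21 is thus part of the ER result. It was the highest of the 3 mutants in 38 of the 50 members, against 31.9% of all genes tested, and the highest of all 6 libraries in 15 of 15 HSF1-type genes, 12 of 15 ER genes and 3 of 7 chaperonin genes. How many of all genes were highest in a given library of the 6 was not counted, here or for WT1 and N10 below. The class mean of the log2 difference from the WT mean was 0.33, 0.25 and 0.34 in C19, C20 and C21 for the chaperonin, 0.37, 0.41 and 0.80 for the HSF1-type genes, and -0.09, 0.15 and 0.66 for the ER genes. Without C21, 24 members were called, 21 of them higher, the HSF1-type median was 0.45 with 8 called higher and 1 lower (*Chordc1*), and the ER median was 0.03 with 2 called higher and 2 lower. Calls fell over all genes as well, to 27.4% without C21 (13.5% higher) from 35.3% with all libraries (17.4% higher). Without C19, 32 members were called, the ER median was 0.48, and 8 ER genes were called higher and 1 lower, with *Pdia3*, *Pdia4*, *Pdia6*, *Sdf2l1* and *Manf* added. Without C20 the ER counts were 5 and 1, and without M27 or M28 they were 2 and 0. *Hspa5* without C21 had a log2 fold change of 0.30 and was not called, while *Calr* (0.31) and *Hyou1* (0.40) still were. The calls of *Hspa5* and *Xbp1* were also lost without M27 or M28 and under DESeq2, that of *Hspa5* also in the fit of 12 libraries, and that of *Calr* under DESeq2. That C21 stood apart was noticed after the values were seen.

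**Figure D4:**
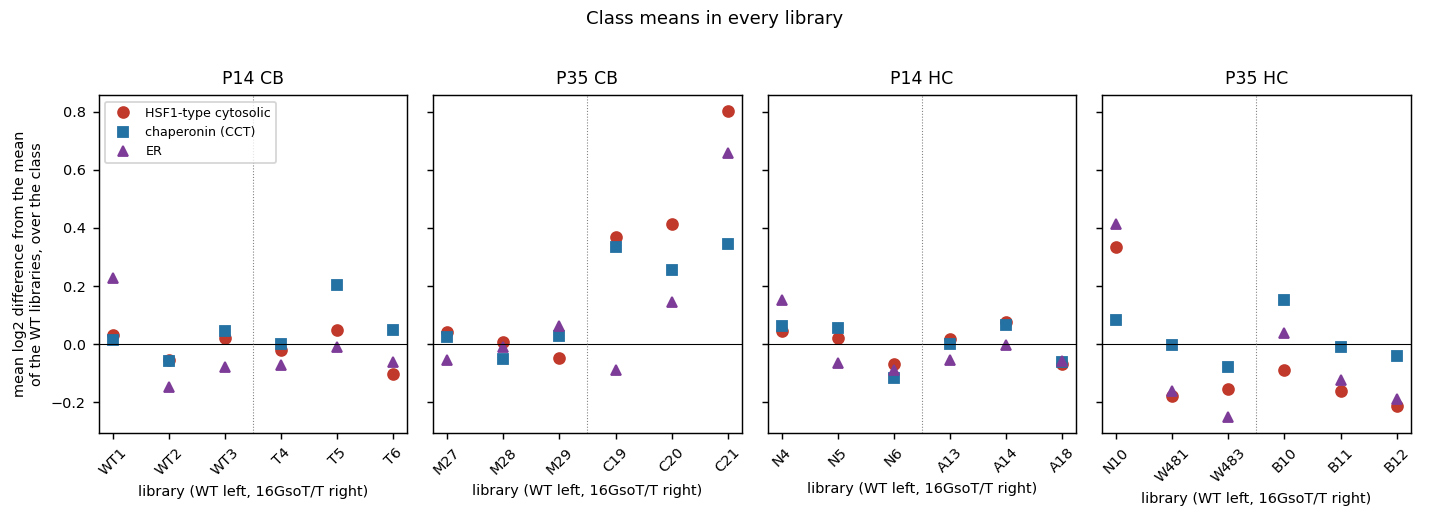
Mean over the genes of a class of the log2 difference from the WT mean (y axis) in each of 6 libraries per comparison, for the HSF1-type, chaperonin and ER genes. In P35 CB the chaperonin genes sit at 0.25 to 0.34 in all 3 mutants while the ER genes run from -0.09 to 0.66, and in P35 HC the WT library N10 stands at 0.41 for the ER genes.

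Other genes of the same pathways, from lists chosen by role, were also counted in P35 CB, where 17.4% of all genes were called higher and 18% lower. Of 21 further cytosolic co-chaperones 8 were called higher and 0 lower (median 0.15), including the HSP90 co-chaperone *Fkbp4* at 0.54, the kinase adaptor *Cdc37* at 0.47, the small heat shock protein *Hspb6* at 0.52 and the exchange factor *Hspbp1* at 0.44. Of 9 further chaperonin and prefoldin genes 3 were higher and 1 lower, the last being the prefoldin subunit *Vbp1* at -0.62, and of 8 mitochondrial genes 3 were higher and 0 lower. Of 27 further genes of ER folding and degradation 4 were called higher and 5 lower, with a median of -0.02, and of 20 UPR sensors and targets of the integrated stress response 1 was higher and 2 were lower, among them the sensor IRE1 (*Ern1*) at -0.57. In the other 3 comparisons 0 genes of these lists were called.

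Markers of other cells moved in P35 CB beside these genes. All 8 endothelial and mural cell markers were called lower, with a summed level of 169 to 188 CPM in WT and 91.3 to 101 CPM in 16GsoT/T, and in bulk tissue fewer cells of a type and less RNA per cell cannot be told apart. Immediate early genes, which report recent neuronal activity, were higher in 13 of 13 tested and called in 7, with sums of 201 to 386 CPM in WT and 426 to 697 CPM in the mutants. Glucocorticoid targets were higher in 10 of 10 and called in 4, with sums of 370 to 430 CPM and 419 to 674 CPM. Of 5 forebrain markers tested 3 were called higher, with sums of 215 to 247 CPM in WT and 247 to 340 CPM in the mutants. Of 4 erythroid markers 2 were called higher and 1 lower, with sums of 117 to 165 CPM and 172 to 281 CPM. Choroid plexus markers were lower in 6 of 7 and called in 2, with sums of 20.7 to 2072 CPM in WT and 136 to 375 CPM in the mutants. The part of these differences in the rise of the chaperone genes was not tested. The read shares above did not overlap between the genotypes in P35 CB, so their part cannot be told apart from that of genotype.

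At P14 the same genes showed little in CB. In P14 CB 0 of 50 members were called by edgeR, 1 had an unadjusted p under 0.05, and DESeq2 called 0, with 0.506% of all 15993 genes called. The median log2 fold change over the members was -0.01. *Hspa8* was at 1508 ± 9.82 CPM in WT and 1533 ± 111.98 CPM in the mutants, *Hsp90ab1* at 1320 ± 52.6 and 1280 ± 55.5 CPM, and *Tcp1* at 192 ± 2.88 and 203 ± 16.8 CPM (SD, n = 3 each). *Hspa1a*, with 51 to 59 reads in WT and 41 to 47 in the mutants, lay at 1.55 to 2.22 CPM and 1.15 to 1.36 CPM, the single member with an unadjusted p under 0.05 (log2 fold change -0.54, edgeR adjusted p = 0.49). *Hspa5* was at 509, 321 and 371 CPM in the WT libraries WT1, WT2 and WT3 and at 357, 384 and 361 CPM in the mutants, so WT1 alone stood high. WT1 was the highest of the 6 libraries in 13 of 15 ER genes. Among the 3 WT it was the highest in 14 of 15 ER genes, against 30.4% of all genes. Glucocorticoid targets were lower in 10 of 10 and called in 7, with sums of 531 to 610 CPM in WT and 337 to 361 CPM in the mutants.

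The genotype effect in CB differed between the ages for 16 of the 50 members, in a fit of 12 libraries with an interaction term, with 18.6% of 15784 genes called. Values are the log2 fold change at P35 minus that at P14. For 15 of the 16 the effect was higher at P35, and *Hspa13* was the exception (-0.36). The set held 9 HSF1-type genes, 3 other cytosolic chaperones, 1 chaperonin gene (*Cct3*) and the ER genes *Calr*, *Hyou1* and *Hspa13*. *Hspa1a* differed by 1.74 (standard error 0.343, edgeR adjusted p = 0.00271), *Bag3* by 1.03, *Hsp90ab1* by 0.72 (standard error 0.117, edgeR adjusted p = 0.000677), *Stip1* by 0.63 and *Hspa8* by 0.62. The count of called members was 13 without C21, M27 or WT1 and 21 without C19. The share of all genes called was 13.5% without C21, 12.8% without M27, 17.9% without WT1 and 15.8% without C19. The P14 CB libraries had 64.8 to 68.1% of reads on genes, against 37.6 to 42.4% in P35 CB, so age and this property of the libraries cannot be told apart.

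In HC no member was called at either age. In P14 HC 0 of 50 passed with edgeR, 6 had an unadjusted p under 0.05 and DESeq2 called 2 (*Hsp90aa1* among them), with 0.814% of 15227 genes called. *Hspa4l*, an HSP110 relative, was at 70.6 ± 1.799 CPM in WT and at 90.5 ± 8.28 CPM in the mutants (SD, n = 3 each; log2 fold change 0.36, edgeR adjusted p = 0.0738). With a library left out, edgeR called it without the mutant A18. *Hsp90aa1* had 911 ± 27.1 and 1084 ± 74.2 CPM and *Hspa2* 72.2 ± 3.79 and 57.9 ± 3.12 CPM, and neither passed (edgeR adjusted p = 0.119 and 0.0794). These 3 groups did not overlap, as was so for 11 of 50 members and 23.8% of all genes. Class medians ran from -0.07 to 0.06. Glucocorticoid targets were lower in 10 of 10 and called in 2, with sums of 533 to 578 CPM in WT and 343 to 412 CPM in 16GsoT/T.

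In P35 HC 0 of 50 passed with edgeR and with DESeq2, 2 had an unadjusted p under 0.05 (*Hspa1a* and *Hspa4l*), and 0.135% of 13343 genes were called. The WT library N10 set the spread. *Hspa5* was at 510 CPM in N10, 221 and 210 CPM in W481 and W483, and 285, 247 and 223 CPM in the mutants B10, B11 and B12. *Calr* had 409 CPM in N10, 246 and 240 CPM in the other WT and 240 to 303 CPM in the mutants, and *Hspa8* 2038 CPM, 1403 and 1436 CPM and 1559 to 1635 CPM. *Hspa1a* was at 12.7, 3.12 and 7.70 CPM in WT and at 3.601 to 4.30 CPM in the mutants. N10 was thus above all other P35 HC libraries for each of the 4, and it was so for 14 of 15 HSF1-type genes, 13 of 15 ER genes and 2 of 7 chaperonin genes. Among the 3 WT it was the highest in 42 of 50 members, against 41.9% of all genes.

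N10 shares its number series with the mutants, so a fit with that series as a covariate has N10 as the only WT library beside them and repeats how high N10 is. With all libraries the ER median was -0.08 and the HSF1-type median -0.09. Without N10 the ER median was 0.10, the HSF1-type median -0.02, *Hspa5* had a log2 fold change of 0.21, and 0 members were called, beside 1.02% of all genes. The ER median thus changed sign with this library left out, and the HSF1-type median stayed below 0. Choroid plexus markers were higher in 6 of 6 tested and called in 4, with sums of 80.0 to 94.4 CPM in WT and 353 to 1742 CPM in 16GsoT/T, and their part was not tested.

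In HC, edgeR called a difference in genotype effect between the ages for 0 of 50 members and 0.00666% of 15010 genes, 4 members had an unadjusted p under 0.05, and DESeq2 called 1 member. At P14 a difference between the regions was called by edgeR for 0 of 50 members and 0% of 16398 genes, 2 members had an unadjusted p under 0.05, and DESeq2 called 0. At P35 the genotype effect differed between CB and HC for 12 of the 50, with 9.61% of 14363 genes called, and it was higher in CB for all 12. *Hspa2* differed by 0.87 (standard error 0.178, edgeR adjusted p = 0.00562), *Hsph1* by 0.90 (standard error 0.212, edgeR adjusted p = 0.013), *Hsp90ab1* by 0.66 (standard error 0.139, edgeR adjusted p = 0.00624) and *Hspa12a* by 0.64. No chaperonin, mitochondrial or UPR gene was among the 12, and *Hyou1* was the ER member. The count was 7 without N10 or M28, 6 without C21 and 5 without B12, and *Hspa1a*, *Hsph1*, *Hsp90ab1*, *Hspa2* and *Hspa12a* were called whichever of the 12 libraries was left out. These counts are given without the share of all genes called in the same fits. The P35 CB and P35 HC libraries ran on different lanes, and read shares separated the genotypes in P35 CB but not in P35 HC. In P35 HC reads on genes were 39.3 to 40.9% in WT and 39.9 to 41.1% in 16GsoT/T. Region therefore cannot be told apart from these properties of the libraries.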

How the data were processed

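The deposited tables hold raw counts per gene symbol for 24 libraries, 1 table for each age. According to the study's methods and the submitters' processing notes the authors mapped reads with TopHat2 2.0.8 to NCBIM37 and counted them per gene with HTSeq 0.6.1 (CASAVA 1.8.2, edgeR 3.2.4 and R 3.0.0 are also named). The annotation, the strand option and the handling of reads shared by paralogs are not given in the sources used here, and the library kit is named differently in the methods and the labels. HTSeq drops reads that fit several places or genes, so near-identical genes such as *Hspa1a* and *Hspa1b* can be undercounted. Lines of the tables that name no gene were left out of library sizes; reads on genes were 37.6 to 68.1% of each library, and the rest were mostly outside genes or not uniquely mapped.

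Each region and age was fitted on its 6 libraries with edgeR 4.0.16 (R 4.3.3): genes kept by filterByExpr (minimum count 10, total 15), TMM normalization, quasi-likelihood test and Benjamini-Hochberg adjustment at 0.05. Interactions of genotype with age or region were fitted on 12 libraries. The fits were tried on counts simulated from the fitted model, with changes larger than those of most members. Differences of lane, read share or a single library were not simulated, so this trial says nothing of their part. Levels are CPM after TMM over all 24 libraries; the ratio of mean CPM can differ slightly from the fitted fold change. RPKM and gene positions use GENCODE vM1 exons on NCBIM37, and promoters come from RefSeq on GRCm38.p6, so the coordinates are of different builds. Alternatives were DESeq2 1.42.0, its size factors, other filters, a fit of all 12 libraries of an age, a fold change limit of 1.5, the number series as covariate in P35 HC, and leaving out each library. Leaving out the C21 and N10 libraries was among these; that they matter was seen in the data.

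Named genes were every member called in a comparison and a fixed set of core members (*Hspa1a*, *Hspa1b*, *Hspa8*, *Hsph1*, *Hsp90aa1*, *Dnajb1*, *Hspb1*, *Hsf1*, *Tcp1*, *Cct2*, *Hspd1*, *Hspa5*, *Hsp90b1*, *Calr*, *Ddit3*, *Xbp1* and *Atf4*). The plan allowed at most 4 called genes of the other pathway lists in a comparison. In P35 CB more than that were named (*Fkbp4*, *Cdc37*, *Hspb6*, *Hspbp1*, *Vbp1* and *Ern1*). Further members and libraries named were chosen after their values were seen. The 50 members, the classes and the lists were chosen with earlier results of these data known. Where a p is given beside 3 mice a group, it is the edgeR test across all genes.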

Additional observations from a re-analysis of the deposited data

Results flagged for a closer look

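The effect of genotype on 16 members differed between P14 and P35 in CB by the interaction term of the edgeR fit over 12 libraries. The difference, as the log2 fold change at P35 minus that at P14, was *Hspa1a* 1.74, *Hspa1b* 1.75, *Hspa8* 0.62, *Hsph1* 0.66, *Hsp90ab1* 0.72, *Dnajb1* 0.60, *Bag3* 1.03, *Stip1* 0.63, *Ahsa1* 0.46, *Hspa2* 0.65, *Hspa4* 0.38, *Hspa12a* 0.67, *Cct3* 0.42, *Calr* 0.67 and *Hyou1* 0.79, each positive, and *Hspa13* -0.36. Of these 16 genes, 18.6% being the share among all genes, *Hspa1b*, *Hsph1*, *Hspa4* and *Hspa13* were not called without C21. *Hsph1* was also not called without M27, M28 or WT1, *Hspa13* without M27 or M28, *Hspa1b* without M29 or WT1, *Hspa4* without M27 and *Calr* without M27 or WT1.

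The effect of genotype on 12 members differed between CB and HC at P35 by the same kind of test. The difference, as the log2 fold change in CB minus that in HC, was *Hspa1a* 2.19, *Hspa1b* 1.85, *Hspa8* 0.65, *Hspa4l* 0.46, *Hsph1* 0.90, *Hsp90ab1* 0.66, *Stip1* 0.65, *Ahsa1* 0.57, *Hspa2* 0.87, *Hspa4* 0.51, *Hspa12a* 0.64 and *Hyou1* 0.82. *Hspa1b*, *Hspa8*, *Hspa4l*, *Ahsa1* and *Hyou1* were not called without N10, the WT library of P35 HC with the highest chaperone levels. The same 5 and also *Stip1* were not called without C21, and these 6 and *Hspa4* were not called without B12. *Hspa1b*, *Hspa8*, *Stip1*, *Ahsa1* and *Hyou1* were not called without M28. Further losses were *Hspa1b* without B10, B11, W481 or M29, *Hspa4l* without W481, C19 or M29, and *Hspa8* without M27. *Ahsa1* was also lost without B11 or M27, and *Hyou1* without B10, B11, C20, M27 or M29. The part of C21 and N10 in these differences is given by those values and was not tested further.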

How the results depend on the processing

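The count of 28 members called in P35 CB was 22 with DESeq2 and in a fit of all 12 libraries of the age, 28 with DESeq2's size factors, 27 where every library needed 10 counts, 31 with no filter, 11 where a fold change of at least 1.5 was tested, and 20 to 32 when a library was left out, lowest without M28 and highest without C19. In P14 HC the count was 2 with DESeq2 and 0 to 1 with a library left out. In P35 HC it was 1 with the number series as a covariate (*Hspa5*, lower), a fit in which N10 is the only WT library beside the mutants, and the genotype by age count in HC was 1 with DESeq2. The genotype by region count at P35 was 5 to 13 with a library left out, 18 with no filter and 11 to 14 otherwise. The genotype by age count in CB was 16 to 21 under the settings that kept all libraries.

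Several members that were not called in a comparison changed sign there when a library was left out, and their log2 fold changes are given as ranges. In P14 CB these were *Hspa8* from -0.0488 to 0.0339, *Hsph1* from -0.0725 to 0.0884, *Hspb1* from -0.154 to 0.146, *Tcp1* from -0.000304 to 0.0939, *Cct2* from -0.00700 to 0.0383, *Hspa5* from -0.292 to 0.0679, *Hsp90b1* from -0.124 to 0.0486, *Ddit3* from -0.231 to 0.0159 and *Xbp1* from -0.0447 to 0.156. In P35 CB they were *Hspb1* from -0.144 to 0.315, *Hsf1* from -0.15 to 0.038, *Hsp90b1* from -0.0745 to 0.132 and *Ddit3* from -0.0385 to 0.177. In P14 HC they were *Hspa1a* from -0.255 to 0.0565, *Dnajb1* from -0.0778 to 0.0368, *Tcp1* from -0.0218 to 0.0901, *Hspa5* from -0.175 to 0.0377 and *Hsp90b1* from -0.0297 to 0.106. In P35 HC they were *Hspa8* from -0.115 to 0.146, *Hsp90aa1* from -0.0315 to 0.0583, *Dnajb1* from -0.253 to 0.264, *Hsf1* from -0.107 to 0.123, *Hspa5* from -0.507 to 0.209, *Hsp90b1* from -0.225 to 0.131, *Calr* from -0.252 to 0.138, *Ddit3* from -0.0772 to 0.11, *Xbp1* from -0.238 to 0.214 and *Atf4* from -0.0372 to 0.124, and the number series as a covariate gave *Hsp90aa1* -0.083, *Ddit3* -0.13 and *Atf4* -0.066. The cause was not tested. No called member changed sign under the settings run. A fit with a library left out keeps 2 mice in a group, and the spread is then pooled over the remaining libraries.

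No paired analysis was possible because the groups compared share fewer than 2 animal numbers and the labels tie no WT mouse to a mutant. Depth limits the inducible genes, since *Hspa1b* was counted 5 to 18 times in the P35 CB WT libraries, and counting error alone is large there. Groups of 3 mice measure the spread between these mice only.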
